A study of Mus musculus with 12 samples.

Results

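The CpGs described here lie inside very long genes, with no close neighbour in the list of differentially methylated sites. Among the listed CpGs they were chosen by position: a CpG had to fall in a RefSeq protein-coding span (GRCm38.p6) whose length is over 200 kb, with no other listed site within 100 bp. CpGs near the ends of protein-coding or long noncoding RNA spans were left out, from 1000 bp beyond an end up to 100 bp within the span. Of 2798 CpGs in the authors' deposited table, 255 met this rule, in 190 genes. DNA methylation had been measured by reduced representation bisulfite sequencing (RRBS), which enriches CpG-rich restriction fragments and reads unmethylated cytosines as thymine. The libraries are labelled as splenic CD11c dendritic cells, antigen-presenting cells, of female first-generation (F1) C57BL/6 offspring, all labelled as immunised with OVA. In the first group of 6 libraries the mothers (F0) had received corn oil. In the other group of 6 libraries the mothers had received di(2-ethylhexyl) phthalate (DEHP), a plasticiser, at 37 µg per kg per day. Both treatments lasted 10 days and the mothers were then mated with untreated males. The extraction notes also name spleen tissue. The purchased mice were 6 to 8 weeks old, and the labels give no age for the offspring.

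The values used here are the authors' own comparison of the 2 groups, given per CpG as a difference in percentage points with a p-value and a q-value. They hold no value per library, so no spread between offspring, litters or mothers can be given and the read depth is unknown. The labels do not say that each library is a separate animal, so the deposited q-values may measure technical spread only. Sample titles are numbered in a pair of ways, both used in each group, and a batch effect was not tested. Only differences of at least 25 points are listed, and the CpGs that were covered but not called are unknown. The sign of a difference is read as the maternal DEHP group minus the maternal corn oil group, which the table does not state. A gain means hypermethylated and a loss hypomethylated under that reading. Because levels are not part of the table, the labelled cell type was not checked against marker genes.

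Most CpGs in mammalian gene bodies are methylated, and the bodies of very long genes consist largely of introns. In the mouse the longest protein-coding genes include many for synaptic adhesion proteins, ion channels and guidance receptors, which are used mainly by neurons, beside transcription factors that are used widely. A CpG inside such a gene may lie far from any promoter, in an intronic enhancer, in a repeat or in sequence with no annotated role. The gene table used here gives spans without exons, so exon and intron could not be told apart for single sites.

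The sequence around a called CpG could be shown for 1 of the 236 CpGs on chromosomes with RefSeq start windows, because it alone falls in a window of 300 bases around an annotated start (250 bases before to 50 after). This CpG, at position 18853852 of chromosome 12, is in the predicted gene Gm40847 and was hypomethylated by -33.1 points in the authors' deposited table. The window is shown 5′ to 3′ on the plus strand, every CpG in capitals, and the called CpG starts at base 148. The start window of Hs6st2, on the minus strand of chromosome X (51680428 to 51680727), is shown beside it because a pair of gains lay 260 and 446 bp downstream of that start. Both sequences are from RefSeq, GRCm38.p6.
Gm40847, chr12:18853705-18854004: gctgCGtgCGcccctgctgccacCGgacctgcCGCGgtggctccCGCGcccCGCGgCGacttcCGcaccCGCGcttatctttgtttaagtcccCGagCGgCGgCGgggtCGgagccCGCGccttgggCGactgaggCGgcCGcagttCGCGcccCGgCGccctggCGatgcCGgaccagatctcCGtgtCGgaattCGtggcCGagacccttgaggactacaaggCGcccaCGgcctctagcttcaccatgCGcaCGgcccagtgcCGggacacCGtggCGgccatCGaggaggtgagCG
Hs6st2, chrX:51680428-51680727: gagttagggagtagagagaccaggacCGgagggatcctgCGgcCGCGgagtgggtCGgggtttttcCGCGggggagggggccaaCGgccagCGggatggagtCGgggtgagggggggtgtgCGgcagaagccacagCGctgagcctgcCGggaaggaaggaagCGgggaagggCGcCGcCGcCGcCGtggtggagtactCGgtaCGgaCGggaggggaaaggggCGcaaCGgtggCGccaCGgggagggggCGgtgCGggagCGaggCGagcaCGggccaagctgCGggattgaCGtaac
The Gm40847 window holds 42 CpGs and the Hs6st2 window 33, against a median of 7 over 32851 RefSeq start windows of the same length. The motif CCGG, which reads the same on both strands, occurs 4 times in the Gm40847 window and 2 times in that of Hs6st2, and at least once in 52.8% of all windows. Its nearest copy lies 7 bp from the called CpG of Gm40847.

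Longer genes carried more isolated CpGs per gene but fewer per base. Of 990 protein-coding spans over 200 kb, 190 (19.2%) held at least 1 isolated CpG. In the 20910 spans up to 200 kb the same rule found 820 CpGs in 725 genes, which is 3.47% of genes. Among the long spans, 59 of 433 genes of 200 to 300 kb held one (13.6%), 67 of 330 genes of 300 to 500 kb (20.3%) and 36 of 168 genes of 500 to 1000 kb (21.4%). Of the 59 genes over 1000 kb, 28 did (47.5%). Per Mb outside the gene-end windows, the same classes held 0.715, 0.704, 0.507 and 0.480 isolated CpGs (exact 95% Poisson intervals 0.560 to 0.899, 0.565 to 0.867, 0.383 to 0.658 and 0.340 to 0.659). Spans up to 20 kb held 2.87 per Mb (2.51 to 3.27) and spans of 100 to 200 kb held 0.866 (0.739 to 1.01). These intervals cover counting error only, and how many CpGs RRBS covered in each class is not part of the density. Across the 990 genes Spearman's rank correlation between span length and the number of isolated CpGs was 0.15, and genes are not independent replicates.

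**Figure D1:**
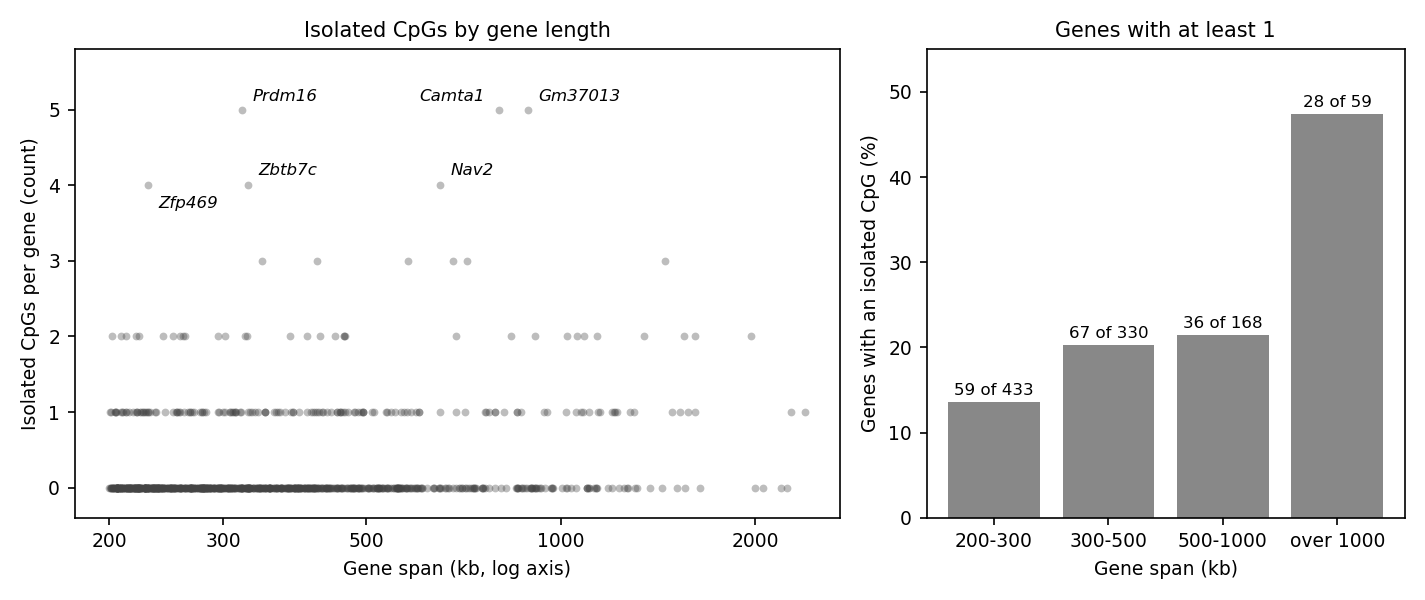
Left, number of isolated CpGs in each of the 990 protein-coding genes over 200 kb (points, overlapping points appear darker) against span length in kb on a log axis; right, percent of genes in each length class with at least 1. The share of genes rises from 13.6% at 200 to 300 kb to 47.5% over 1000 kb, while the genes with 4 or 5 CpGs are between 229.5 and 889 kb long.

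Of the 190 genes, 146 carried 1 isolated CpG, 32 carried 2, 6 carried 3, 3 carried 4 and 3 carried 5. The longest genes were not the richest. The longest span, Dmd (2390 kb), which encodes dystrophin, held 1 loss (-26.4 points in the authors' deposited table). Ptprd (2271 kb), a receptor tyrosine phosphatase of synapses, held 1 loss as well (-32.1 points in the authors' deposited table). Cntnap2 (2241 kb) and Lsamp (2197 kb), both neuronal adhesion genes, and the lipoprotein receptor gene Lrp1b (2058 kb) held no listed CpG at all. In isolated CpGs per Mb among genes with at least 2, the highest values were those of Zfp469 (17.4), Prdm16 (15.6), Zbtb7c (12.2), the microfibril gene Fbn2 (9.90) and Efcab6 (9.60). Once a minimum count is set, this ranking favours short spans. Among the 190 genes Spearman's rank correlation between span length and CpGs per Mb was -0.826. Fbn2 (202 kb) and Efcab6 (208 kb) held 2 CpGs each. At the length threshold, the shortest genes with one were Pcbp3 (200.3 kb) and Tspear (200.9 kb), with differences of -27.4 and 25.4 points in the authors' deposited table. The longest genes with an isolated CpG below it were Rtn1 (197.3 kb) and Gpr39 (196.9 kb), with 25.3 and -25.6 points there.

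Losses outnumbered gains among the isolated CpGs of very long genes. There were 109 gains and 146 losses in the authors' deposited table, a share of gains of 42.7% (exact 95% binomial interval 36.6 to 49.1, counting error only). Over all 2798 listed CpGs the share of gains was 48.4%, and over the 820 isolated CpGs of shorter protein-coding genes it was 49.0%. The share was 45.2%, 40.9%, 41.1% and 44.7% from the shortest to the longest of the 4 classes over 200 kb, and 46.5% to 51.2% in the classes below. The binomial intervals of all 8 classes overlap. With no value per library, whether the direction of these CpGs differs from that of the rest was not tested.

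**Figure D2:**
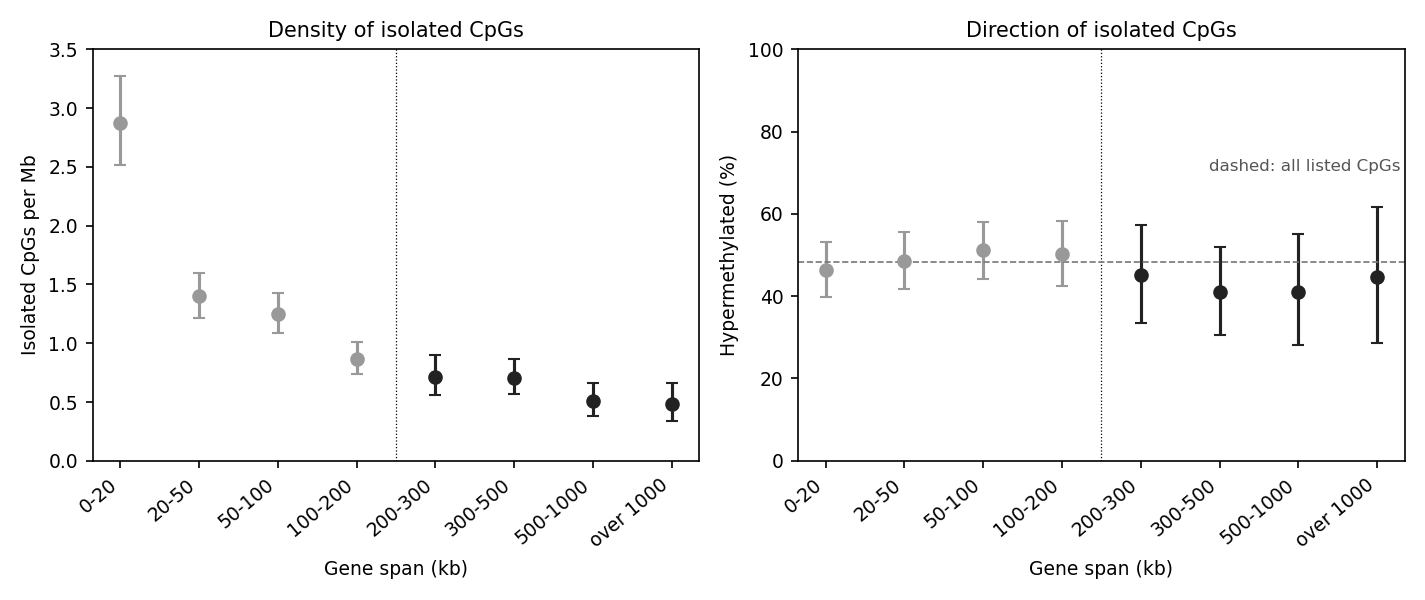
Isolated CpGs per Mb outside the gene-end windows (left) and percent hypermethylated (right) by class of gene length in kb; points are values, bars exact 95% Poisson (left) and binomial (right) intervals, black points are the classes over 200 kb and the dashed line is the share over all listed CpGs (48.4%). Density falls from 2.87 to 0.480 per Mb, and all 4 black points on the right lie below the dashed line, with intervals that reach across it.

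In size the isolated CpGs were close to the list as a whole. Their median absolute difference was 29.0 points in the authors' deposited table (quartiles 26.6 and 31.7), against 28.7 over all listed CpGs. Differences of at least 30 points made up 38.4% of them (98 CpGs), against 39.4% of the list. Of the 12 that reached 40 points (4.71%, against 5.43% of the list), 3 were gains and 9 were losses. A deposited q-value of 0 was given for 192 of the 255 (75.3%, against 74.1% of the list), and the largest was 4.40e-07.

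The largest gain was at position 117547030 of chromosome 14, in Gpc6, which encodes a glypican, a heparan sulfate proteoglycan of the cell surface (54.6 points in the authors' deposited table). It was followed by Ptprg, a receptor tyrosine phosphatase gene (43.5 points), and Mylk, which encodes myosin light chain kinase (40.9 points). Gains of 37.3 to 39.5 points in the authors' deposited table were found in the Hedgehog transcription factor gene Gli2, the mitochondrial carrier gene Slc25a21, the phosphodiesterase gene Pde10a, Fryl and the sarcoglycan gene Sgcz. The largest loss was at 118504048 of chromosome 11, in the neuronal splicing factor gene Rbfox3 (-49.1 points in the authors' deposited table). Next came Mical3, which encodes a monooxygenase that acts on the actin cytoskeleton (-47.0 points, with a second loss of -36.7 points), and Mylk (-42.0 points). Losses of -40.2 to -41.7 points in the authors' deposited table lay in the catenin gene Ctnna3, the X-linked synaptic scaffold gene Cask, the lipid-binding gene Osbpl10, Slit3 and Unc5d. Stk39 followed closely, with a loss that also rounds to -40.2 points. Mylk thus held one of the largest gains and one of the largest losses, at 34985697 and 34936207 of chromosome 16, 49.5 kb apart.

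In all, 12 genes held 3 or more isolated CpGs, with 45 CpGs among them. Gains and losses occurred together in 10 of these 12, and in the other two, Csmd2 and Zfhx3, all were losses. Prdm16, a zinc finger regulator of brown fat and blood stem cells (chromosome 4, 154316122 to 154637360), held 5 isolated CpGs. They measured -39.4, -35.4, -31.5, 31.6 and -33.6 points in the authors' deposited table, in order of position from 154458993 to 154541000. The single gain lay between losses. Camta1, which encodes a calmodulin-binding transcription activator (chromosome 4, 151059523 to 151861768), also held 5, at -27.5, -25.03, -33.1, -29.4 and 26.5 points in the authors' deposited table. The last pair, of opposite direction, was 3142 bp apart. Of these 5 CpGs, 1 reached 30 points and 3 had a deposited q-value of 0. Another 2 listed CpGs of Camta1 were left out as neighbours within 100 bp, and the nearer of them lay just over 100 bp from the isolated CpG at 151560228, the closest neighbour that the rule admits here. At the other side of this limit a pair in Elmo1, 92 bp apart (32.4 and -25.9 points in the authors' deposited table), was left out. The left-out neighbours in Camta1 were losses too, of -25.6 and -32.6 points in the authors' deposited table.

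Zfhx3, a homeobox and zinc finger transcription factor gene (chromosome 8, 108279311 to 108961636), showed a contrast between its isolated and its clustered CpGs. The isolated CpGs at 108363988, 108496534 and 108577342 were all losses (-26.9, -31.5 and -29.5 points in the authors' deposited table). A cluster of 3 further CpGs between 108595175 and 108595274, not counted here, held 3 gains of up to 44.4 points in the authors' deposited table. Csmd2, which encodes a large CUB and sushi domain protein (chromosome 4, 127986505 to 128567660), held 3 losses, of -29.3, -25.4 and -35.2 points in the authors' deposited table. Nav2, a neuron navigator gene (chromosome 7, 48959063 to 49610090), changed direction along its length. Its first pair of CpGs, by position, measured 26.4 and 29.9 points in the authors' deposited table and the second pair, 22.5 kb apart, -37.7 and -37.4 points.

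The predicted gene Gm37013 (chromosome 18, 36952648 to 37841873) spans the protocadherin clusters, whose genes encode neuronal adhesion molecules. Its 5 CpGs measured -26.8, 34.3, 29.8, -31.7 and -33.9 points in the authors' deposited table. All also lie in the predicted genes Gm38666 and Gm38667, the first in Pcdhb7 and the others in Pcdhg genes, so none belongs to a single gene. With wider gene-end windows 1 of the 5 remained, and 3 reached 30 points. The CpGs of Gm37013 account for 5 of the 7 CpGs that fell in more than 1 protein-coding span. Zbtb7c, a BTB zinc finger gene on the same chromosome (75820178 to 76148564), held 2 gains and 2 losses (-25.5, 29.6, -36.2 and 25.8 points in the authors' deposited table). Zfp469, a zinc finger gene (chromosome 8, 122043123 to 122272650), likewise held 2 of each (-25.6, 26.3, -28.5 and 25.6 points). Tcf4, the E protein gene needed by plasmacytoid dendritic cells (chromosome 18, 69343429 to 69687967), held 28.2, -26.4 and -28.5 points in the authors' deposited table. Fars2, a mitochondrial phenylalanyl-tRNA synthetase gene (chromosome 13, 36117428 to 36537595), held 33.7, -26.8 and 28.3 points. The X-linked formin gene Diaph2 (129749668 to 130465834) held -25.9, 31.6 and 25.1 points in the authors' deposited table.

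**Figure D3:**
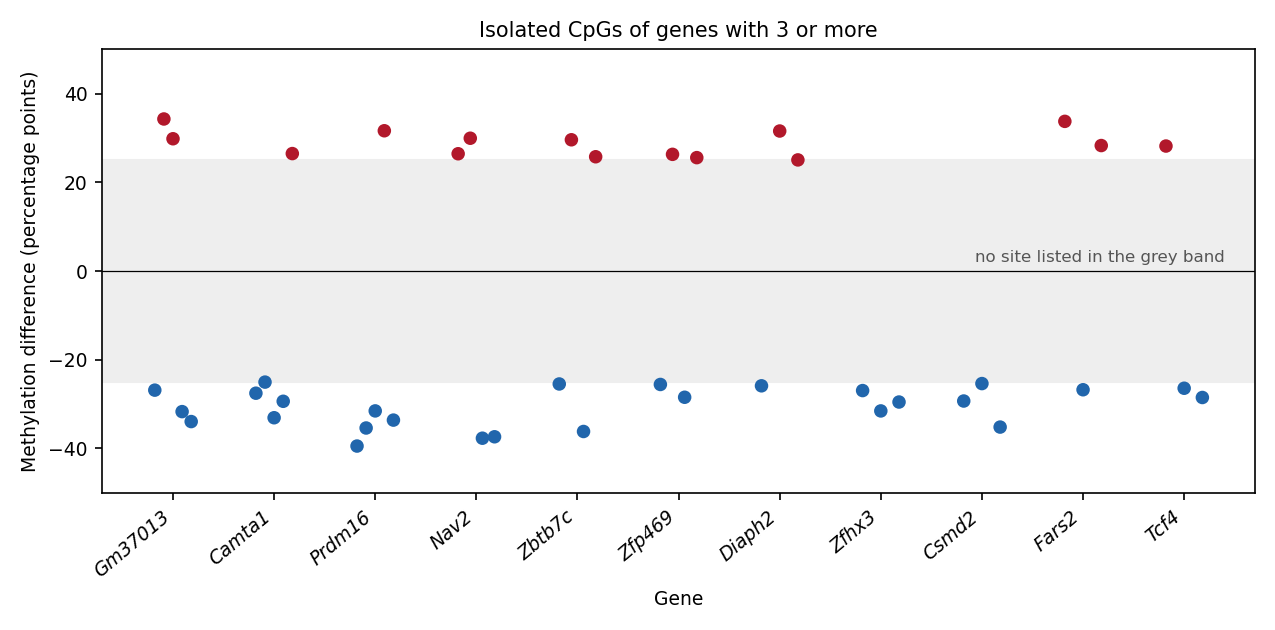
Methylation difference in percentage points of each isolated CpG (points, left to right by position) in 11 of the 12 genes with 3 or more; red points are gains, blue points losses and the grey band is the range below 25 points, where no CpG is listed. Csmd2 and Zfhx3 have losses only, and the other genes shown have points on both sides.

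Of 65 pairs of adjacent isolated CpGs within a gene, 30 had the same direction and 35 were opposite (46.2% same, exact 95% binomial interval 33.7 to 59.0, counting error only). The majority turned with the isolation distance: 54.5% of pairs shared a direction with no such rule, and 55.6% of 45 pairs with 200 or 1000 bp. In spans up to 200 kb, 29 of 95 such pairs did (30.5%, 21.5 to 40.8). At 105 to 194 bp, 12 of 14 pairs were opposite, in 12 genes: Zbtb7c, Ptprg, Cfap47, Sh3rf3, Zfp469, Tcf4, Sugct, Ncam2, Fars2, Naaladl2, Hivep3 and Ranbp17. The Ptprg pair, 120 bp apart, measured 43.5 and -34.4 points in the authors' deposited table. The exceptions were Hs6st2 (30.1 and 27.3 points, 186 bp apart) and the kinase gene Stk39 (-29.6 and -40.2 points, 194 bp apart). No pair lay between 194 and 3142 bp. At over 1 kb, 28 of 51 pairs shared theirs (54.9%, 40.3 to 68.9), and at over 50 kb 20 of 34 did (58.8%, 40.7 to 75.4). Close pairs in spans up to 200 kb were divided in much the same way: 52 of 63 pairs up to 1 kb apart were opposite, and 18 of 32 at over 1 kb shared a direction. Over genes with at least 2 isolated CpGs, 28 of 44 held both directions, 7 gains only and 9 losses only. What the members of close pairs share in sequence or reads was not tested.

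**Figure D4:**
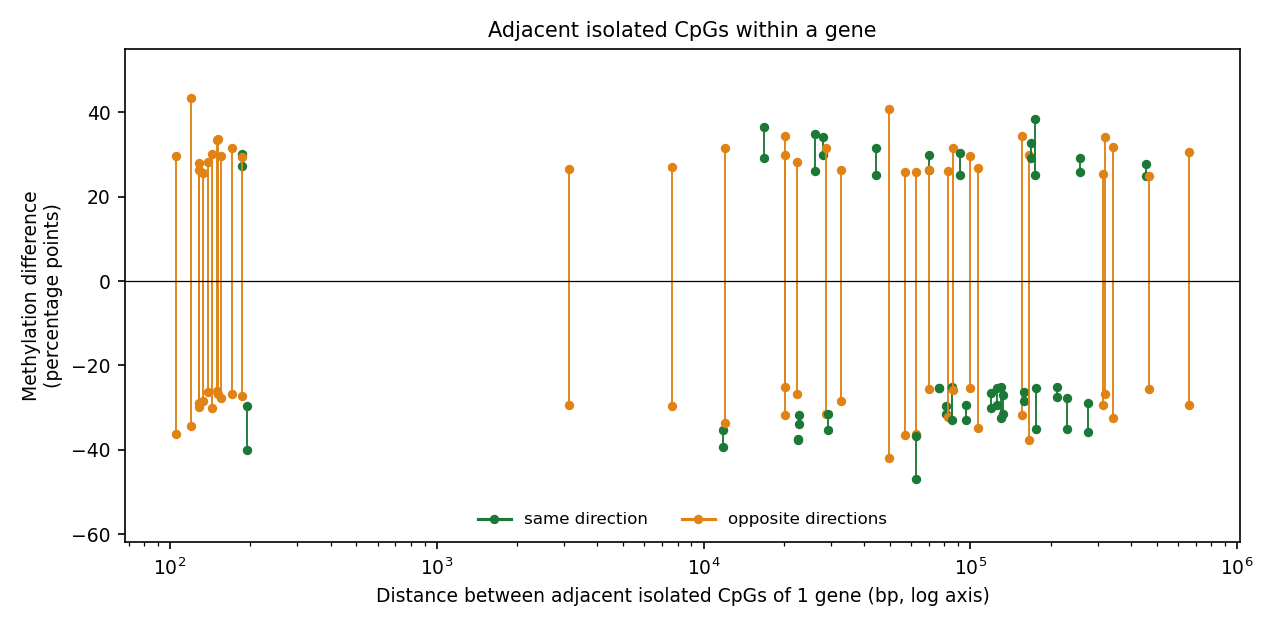
The 65 pairs of adjacent isolated CpGs within a gene, each drawn as a vertical line between the differences (percentage points) of its 2 CpGs at their distance in bp on a log axis; green pairs have the same direction and orange pairs opposite directions. Of the 14 pairs under 200 bp 12 are orange, and both colours are mixed at longer distances.

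Genes were next grouped by role in lists chosen by hand. The lists do not hold every gene of a role, so each count covers the listed genes only. These counts are to be read against all very long genes, of which 19.2% held an isolated CpG. Of the isolated CpGs of all very long genes, 42.7% were gains. Of the genes that regulate transcription or chromatin, 49 of the 87 listed are over 200 kb long. Of these, 12 (24.5%) held 24 isolated CpGs, 7 gains and 17 losses. Prdm16, Camta1, Zfhx3 and Tcf4 are described above and hold 16 of the 24. The rest held gains in Gli2 (39.5 points in the authors' deposited table), Dach1 (27.8 points), Zfp423 (26.6 points) and Sox5 (25.3 points). Losses lay in the neural zinc finger gene Zfp536 (-29.9 points) and Runx2, a factor of bone and plasmacytoid dendritic cells (-28.0 points). The histone deacetylase gene Hdac9 (-27.7 points) and Creb5 (-25.1 points) held losses as well. By gene, 4 of the 12 held gains only, 5 losses only and 3 both. Left out of this list are, among others, Zbtb7c and Zfp469, with 2 gains and 2 losses each. Hivep3 (31.6 and -26.7 points in the authors' deposited table), Pknox2 (25.7 points), Setbp1 (25.01 points) and Foxn3 (-26.4 points) are left out too. The balance of gains and losses in this list therefore depends on which genes were listed. The listed genes of synaptic adhesion and scaffolds were longer, with a median span of 854 kb. Of these, 20 of 58 (34.5%) held 27 isolated CpGs, 7 gains and 20 losses. Per Mb of summed span they held 0.498, against 1.14 in the transcription list and 0.601 over all very long genes. The list is broader than its name. It also holds Rbfox3 (-49.1 points in the authors' deposited table), Rbfox1 (-30.2 points), Cadps (-32.0 points), Cadps2 (-29.9 points), Erbb4 (-26.8 points) and Nrg1 (-25.4 points), all losses. Cask (-41.0 points) is left out of it. Nrxn3, which encodes a presynaptic adhesion protein, carried a pair of losses (-28.9 and -35.8 points in the authors' deposited table). Ncam2, an adhesion gene, held 33.4 and -26.0 points, and in the scaffold gene Shank2 the values were 31.9 and -32.6 points.

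The listed ion channels and ligand-gated receptors held 10 gains and 9 losses in 15 of 53 long genes (28.3%). This list leaves out Gabra3 (-32.1 points in the authors' deposited table) and Kcnab1 (29.2 points). Kcnd3, a voltage-gated potassium channel gene, held 2 gains (36.6 and 29.1 points in the authors' deposited table), and Asic2, an acid-sensing channel gene, held 1 of each (30.7 and -29.4 points). Grid1, a glutamate receptor gene, gained 34.6 points in the authors' deposited table. Among guidance genes and trophic receptors, 5 of 23 long genes (21.7%, near the 19.2% of all very long genes) held 6 CpGs. Of the 6, 5 were losses. These losses lay in Slit3, a ligand of Robo receptors (-40.3 points in the authors' deposited table), and Unc5d, a netrin receptor (-40.2 points). The others were in Ntrk2, the receptor of BDNF (-27.3 points), and Sorcs2, a sorting receptor that binds neurotrophin precursors (-32.5 and -25.04 points). The receptor gene Robo1 gained 34.7 points in the authors' deposited table.

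The listed cadherins, catenins and matrix genes held 3 gains and 11 losses in 12 of 42 long genes (28.6%). This list leaves out Cdh2 (27.4 points in the authors' deposited table), Mmp16 (28.5 points) and Adamts19 (-25.2 points). In the list, apart from Gpc6 and Ctnna3, Fbn2, which encodes fibrillin 2, held -29.7 and 27.1 points in the authors' deposited table. Pcdh15, a cadherin gene of inner ear hair cells, held -25.3 and -25.4 points. The listed kinases, phosphatases and phosphodiesterases held 4 gains and 7 losses in 9 of 41 long genes (21.95%). Among others, Mylk (40.9 and -42.0 points in the authors' deposited table), Stk39 (-29.6 and -40.2 points) and Prkd1 (-29.01 points) are not in this list. The phosphatase genes Ptprd (-32.1 points) and Ptprn2 (29.2 points) were counted in the synaptic list instead. Pde10a held 2 gains (25.2 and 38.5 points in the authors' deposited table), while the AMP-activated kinase subunit gene Prkag2 (-34.7 points) and the phosphatase gene Ptprm (-31.3 points) held a loss each.

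Of 56 immune and dendritic cell genes 19 exceed 200 kb, and isolated CpGs were found in Tcf4 and in Cadm1, an adhesion gene of cross-presenting dendritic cells (-25.8 points in the authors' deposited table). These are 2 of 19 genes (10.5%, against 19.2% of all very long genes). Runx2 (-28.0 points), counted in the transcription list, is left out of this list. Of 22 marker genes of other spleen cells 6 exceed 200 kb, and none of the 6 held an isolated CpG. With 19.2% of all very long genes holding one, 6 genes are too few to show an absence. Over all 9 lists, 84 of 319 long genes (26.3%) held 114 isolated CpGs, 35 gains and 79 losses. The 671 long genes outside the lists held 141 in 106 genes (15.8%), 74 gains and 67 losses. The listed genes were longer, with a median span of 425 against 291 kb, and per Mb of span the densities were 0.635 and 0.577. The lists were chosen by hand with earlier results known, so this split of directions is a description and was not tested.

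**Figure D5:**
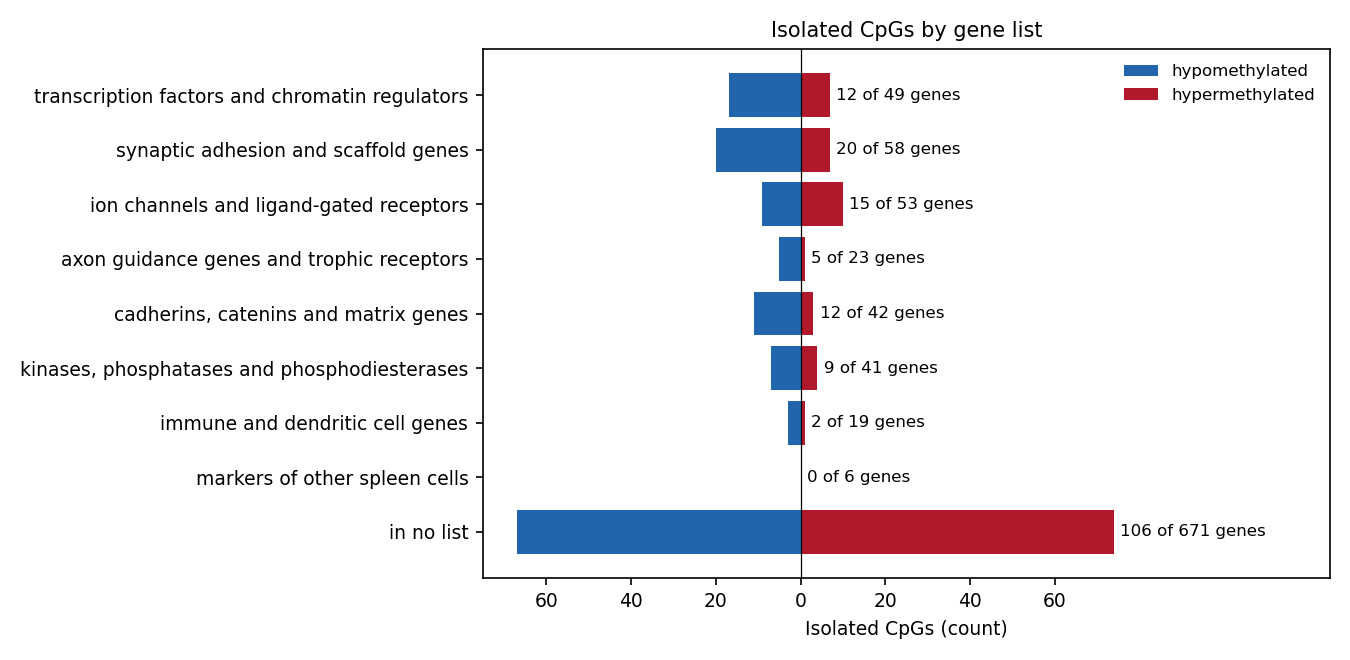
Number of isolated CpGs, hypomethylated to the left and hypermethylated to the right, for 8 of the 9 gene lists and for long genes in no list; the label gives the genes with at least 1 isolated CpG of all genes over 200 kb in the list. Genes in more than 1 list count in each. Losses exceed gains in each list shown with CpGs other than the ion channels (10 gains, 9 losses).

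Some gene families outside the lists were picked out after their values were seen. The neuron navigators Nav1 and Nav3 carried a single loss apiece (-26.3 and -28.4 points in the authors' deposited table) beside the 4 CpGs of Nav2. The transmembrane genes Tmem132b (34.3 and -25.1 points), Tmem132c (-31.7 and 34.4 points) and Tmem132d (31.5 points in the authors' deposited table), all on chromosome 5, held 5 CpGs. Among genes known for common fragile sites, Wwox held 2 gains (29.2 and 32.8 points in the authors' deposited table) and Fhit a gain (26.1 points).

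Along the gene body the isolated CpGs were spread from end to end. The direction of transcription was known from RefSeq start windows for 136 of the 190 genes, which hold 178 CpGs. In 5 equal parts of the span, in order of transcription, these numbered 41, 35, 34, 27 and 41, with 18, 14, 18, 11 and 15 gains. Over all 255, the median distance to the nearer end of the gene was 90.3 kb, and 225 lay more than 10 kb inside. Most were alone over long stretches: 175 had no other listed CpG within 100 kb, and the median distance to the nearest was 282 kb. A long noncoding RNA span covered 16 of the CpGs, and a pseudogene span 2.

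A few isolated CpGs lay close to annotated starts. Of 236 CpGs on chromosomes with RefSeq start windows, 10 lay within 1000 bp of a start, 8 of them gains, against 92 gains among the other 226. All 4 of the 10 that are X-linked were gains: the pair in Hs6st2, which encodes a heparan sulfate sulfotransferase (27.3 and 30.1 points in the authors' deposited table), and those at the signalling adaptor genes Sh3kbp1 (33.4 points) and Cnksr2 (29.3 points). The autosomal gains were at the calcium release channel gene Ryr2 (26.0 points in the authors' deposited table), at Corin, which encodes a cardiac protease (25.4 points), at the orphan receptor gene Gpr158 (25.8 points) and in Tspear, 119 bp from the start of the predicted protein-coding gene Gm19402 (25.4 points). The losses were those at Gm40847, shown above, and at the phosphatase gene Ptpro (-26.0 points in the authors' deposited table). The 10 do not include the CpG of Cask, also X-linked, which lay 923 bp inside an end of its span and measured -41.0 points in the authors' deposited table. Counted by distance to either end of the own gene, 8 CpGs lay within 1000 bp, 5 gains and 3 losses (Cask, Ptpro and Gm40847). These genes were singled out after their values were seen, and 10 CpGs are few.

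By chromosome, the density of isolated CpGs over very long genes ran from 0.110 per Mb on chromosome 19 (1 CpG) to 1.30 per Mb on chromosome 18 (19 CpGs). Chromosome 4 held the largest number, 26 CpGs or 1.09 per Mb, 8 gains and 18 losses, and 10 of these are the CpGs of Prdm16 and Camta1. Chromosome X held 20 CpGs or 0.996 per Mb, 10 gains and 10 losses. Chromosome 1, with the most very long genes (85), held 8 CpGs or 0.228 per Mb. Chromosome 18 owes 12 of its 19 to Gm37013, Zbtb7c and Tcf4.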

How the data were processed

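RRBS was compared between 6 libraries of each maternal group. The submitters' processing notes name methylKit and build GRCm38 (mm10). Aligner, coverage minimum, test form and versions: not given in the sources used here. Per the file headers, the authors' deposited tables hold the p-value and q-value of each called CpG. They also hold its methylation difference, which the authors give in percentage points. The hypermethylated (1354) and hypomethylated (1444) parts add up to the full table of 2798, which alone was used.

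Spans came from the RefSeq gene table (GRCm38.p6, 21900 protein-coding genes placed on chromosomes). A CpG in several spans was given to the longest. Each base counted once for density, in the length class of its longest span. Membership was tested on simulated spans. Python 3.11.15, pandas 2.3.3 and SciPy 1.17.1 were used. Intervals are 95% Clopper-Pearson or Poisson. No group test was run, since values per library were not used here.

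The members and lists were chosen with earlier results of these data known. Named genes are those with at least 3 members, the 8 largest gains and losses (predicted genes aside), the 5 densest with at least 2, the 5 longest spans, and up to 4 per list; others named were chosen after their values were seen. The 49 genes of the rule hold 92 members, 69 with a deposited q-value of 0 (largest 2.03e-07). Alternatives changed the isolation distance, length threshold, gene-end windows, size, q-value and chromosomes. Some genes and 1 list that the rule names are not reported here.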

Additional observations from a re-analysis of the deposited data

How the results depend on the processing

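Of 82 summary values recomputed under other settings, 66 stayed within 1.5 times a count or within the counting interval of a share, median or density. The 255 CpGs became 301 without the isolation rule (0.717 per Mb of span, against 0.607). With spans over 500 kb there were 94 CpGs in 64 genes (0.493 per Mb), and 60% of 30 adjacent pairs shared a direction. With at least 30 points there were 98 CpGs in 85 genes (0.233 per Mb, median 33.2 points). With at least 40 points there were 12 in 11 genes (0.0286 per Mb, median 41.3 points), 25% of them gains, and 0% of 1 pair shared a direction. With a deposited q-value of 0 the density was 0.457 per Mb. All of these settings but the first admit fewer sites by construction. The share of gains was 39.8% to 45.3% in the other settings tried. No paired analysis was possible because the tables hold no value per library, and for the same reason no library could be left out. The density over bases outside gene-end windows (0.612 per Mb) was chosen after seeing the data.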

Other observations

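The very long genes held 56 further listed CpGs that the position rule left out, 46 for a neighbour within 100 bp alone, 1 for a gene-end window alone and 9 for both. They lay in 20 genes, 8 of which also held isolated CpGs. Of these 56, 37 were gains and 19 losses in the authors' deposited table. The 9 left out for both reasons are in Snrpn, an imprinted gene, and all were gains. Without them 28 gains and 19 losses remain. Clusters of gains alone were found in further genes, among them the X-linked genes Nhs, which carries 3 CpGs between 27.8 and 32.8 points in the authors' deposited table, and Aff2, which carries 2 of 38.0 and 46.1 points. Xkr6 held 2 gains (39.9 and 43.9 points) and Nav1 another 2 (33.6 and 40.9 points in the authors' deposited table), against the isolated loss of Nav1. Clustered losses alone lay in Camta1, Cnbd1, Trerf1, Dock1, an exchange factor gene for Rac (3 CpGs, -26.5 to -27.3 points), and in Rbfox3 (-30.2 and -36.7 points in the authors' deposited table), in the same direction as its isolated CpG. In Slit3, Nrxn3, Elmo1 and Zfp993 the clustered pair held 1 gain and 1 loss.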
